A study of Mus musculus with 6 samples.

Results

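The genes described are *Dct*, *Tyr*, *Tyrp1*, *Pmel*, *Mlana*, *Slc24a5*, *Slc45a2*, *Oca2*, *Mc1r* and *Mitf*, which serve melanin synthesis and mark melanocytes. They were chosen by name for their roles in pigmentation, with earlier results of these data known, and all 10 were found among the 26579 genes of the count matrix and among the 15102 genes that passed the filter on low counts. RNA-Seq libraries were made from skin of the dorsal neck of 6 female mice, all 33 days old. The 3 TG mice carried YAP2-5SA-∆C, a mildly active mutant of the Hippo pathway effector YAP, in basal Keratin5/14-positive keratinocytes, and the 3 WT mice were littermates without the transgene. The model thus targets keratinocytes, whereas the genes described here are those of another cell type. Each of the 10 genes was detected in every library, with 14 to 2911 counts. The study describes hair loss on the back and abnormal hair follicles in this line. The promoter of the transgene and the strain background are not given in the sources used here.

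Melanocytes are pigment cells that derive from the neural crest. In mouse back skin most of them sit in the bulb of the growing hair follicle, where they make melanin in melanosomes, organelles related to lysosomes, and pass these to the keratinocytes that form the hair. MITF is the transcription factor at the head of this programme. The receptor MC1R, on the melanocyte surface, raises MITF activity through cyclic AMP. TYR, TYRP1 and DCT catalyse the steps from tyrosine to melanin, PMEL forms the fibrils on which melanin is laid down, and OCA2, SLC45A2 and SLC24A5 set the ion balance that the enzymes need.

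All 10 genes had lower mean levels in TG than in WT skin, and the TG mean was between 35.2% (*Oca2*) and 57.5% (*Dct*) of the WT mean. *Dct* and *Tyrp1* fell, with an adjusted p (FDR) under 0.05 by edgeR's quasi-likelihood method, which makes 2 of 10 genes, and 0 of the 10 rose. Over all tested genes, 0.464% were called lower and 1.44% higher by the same test. The median log2 fold change of the 10 genes was -1.15, whereas that of all 15102 tested genes was -0.01. At an unadjusted p-value under 0.05, 9 of the 10 genes were lower (edgeR quasi-likelihood test), against 13.0% of all tested genes. In 9 of the 10 genes, every TG library lay below every WT library, and 18.2% of all tested genes separated the genotypes in that direction and 15.5% in the other. In bulk skin, fewer melanocytes and less RNA of these genes per melanocyte cannot be told apart.

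**Figure D1:**
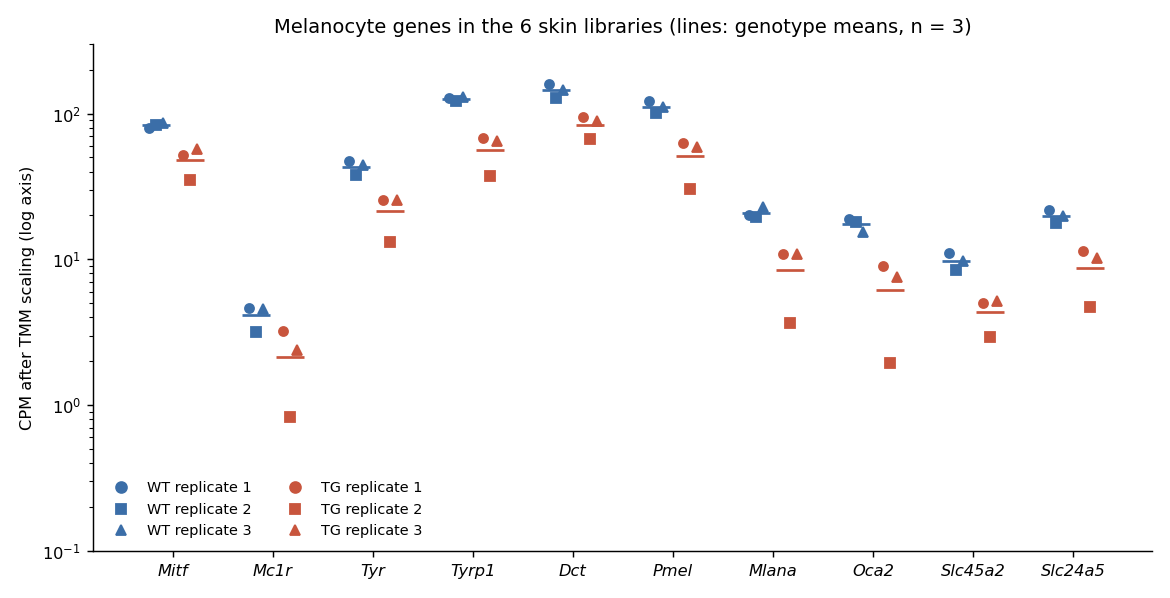
CPM after TMM scaling (log axis) of the 10 genes, ordered from regulators to enzymes, structural proteins and transporters, in the 3 WT (blue) and 3 TG (red) libraries, with horizontal lines at the genotype means. The TG libraries lie below the WT libraries in every gene but *Mc1r*, where TG replicate 1 (3.23 CPM) is above WT replicate 2 (3.19 CPM), and TG replicate 2 (squares) is the lowest library of each gene.

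Levels are given in CPM, which are counts scaled to the library size after TMM normalization. Library totals ranged from 11225705 to 19505036 counts. TG replicate 2 stands apart from the other TG libraries: it was the lowest of the 3 in 10 of 10 genes. For this reason each of the 10 genes is also given without this library, which was decided after seeing the data. Without TG replicate 2, 9 of the 10 genes passed the threshold, all but *Mc1r*, while the median log2 fold change was smaller, at -0.85. In that comparison 2.74% of 14950 tested genes were called lower. With any of the other 5 libraries left out, 0 of the 10 passed the threshold in the quasi-likelihood test of edgeR, although 9 or 10 of them had an unadjusted p-value under 0.05 each time. Over all genes, the same test gave such a p-value to 2726 to 3841 of the 14914 to 14999 tested, in either direction. Without WT replicate 2, WT replicate 3 or TG replicate 3 this test called 0 genes of the whole table, so the count of 0 there is no result about the 10 genes. Without WT replicate 1 it called 0.127% of all genes lower and 0.822% higher, and without TG replicate 1 the shares were 0.0671% and 0.489%.

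The count of calls also differed between tests. The likelihood-ratio test of edgeR, which the study's methods describe, called 10 of the 10 genes lower, with 4.87% of all genes called lower and 5.52% called higher. DESeq2 called 8 of them, all but *Oca2* and *Mc1r*, with 4.18% of all genes called lower. Voom called *Dct* and *Tyrp1*, with 0.417% of all genes called lower. The log2 fold change of each gene was below 0 in every alternative that was run.

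Among the promoters of these genes, short sequences are shown because MITF is known to bind the letters CATGTG, the core of the element called the M-box, in genes of this family. The RefSeq promoter windows of GRCm38.p6, which run from 250 bases before to 50 bases after a gene's start, were searched on both strands for CATGTG and thus also for its reverse complement CACATG. Windows were present for *Dct*, *Mc1r*, *Mitf*, *Oca2*, *Slc24a5*, *Tyr* and *Tyrp1*, and 6 of these 7 genes held the letters at least once. Of all 27025 genes with a window, 15.9% held them. *Pmel*, *Mlana* and *Slc45a2* were not matched to a window. In the stretches below, each 30 bases, the capitals mark a match to these letters, and the sequence is that of the gene's own strand.
Tyr: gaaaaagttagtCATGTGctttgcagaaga
Tyrp1: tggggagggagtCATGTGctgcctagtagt
Dct: tgcacttagggtCATGTGctaacaaagagg
Oca2: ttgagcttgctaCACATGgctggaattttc
Slc24a5: aaggagactgctCACATGattcagcataag
Mc1r: gcacatgcccatCATGTGgccaccctcagg
Distances are counted from the RefSeq start of the gene, and for *Tyrp1* this start lies downstream of the gene's first position in GENCODE, which is given further on. The *Tyr* stretch lies at chr7:87493516-87493545 (minus strand), with the match starting 21 bases before the gene's start, and the *Tyrp1* stretch at chr4:80834155-80834184 (plus strand), 46 bases before it. The *Dct* stretch at chr14:118052379-118052408 (minus strand) holds a match 150 bases before the start, and *Dct* has another at 232 bases. The other 3 stretches lie at chr7:56239561-56239590 (*Oca2*), chr2:125068102-125068131 (*Slc24a5*) and chr8:123407019-123407048 (*Mc1r*), all on the plus strand. *Mc1r* has another match, CACATG, whose stretch overlaps the one shown and whose letters stand there in lower case. *Tyr* and *Tyrp1* shared the 11 letters AGTCATGTGCT around the match, a run chosen after the sequences were seen and found on either strand in 7 of 32851 windows, or 0.0213%. None of the 3 windows of *Mitf* held CATGTG or CACATG. A match is a description of the letters and not a binding site, and it was found in genes called lower by the main test (*Dct*, *Tyrp1*) and in genes that were not (*Tyr*, *Mc1r*, *Oca2*, *Slc24a5*).

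*Mitf* and *Mc1r* regulate the programme. *Mitf* (ENSMUSG00000035158, chromosome 6 of GRCm38 from 97807052 to 98021349) had 79.3, 83.8 and 86.5 CPM in WT replicates 1, 2 and 3, and 51.6, 34.9 and 56.9 CPM in TG replicates 1, 2 and 3. All TG values lay below all WT values, and the highest TG value was TG replicate 3. The log2 fold change was -0.80 (SE 0.17) and the edgeR quasi-likelihood FDR 0.0569, which misses the threshold. Leaving out TG replicate 2 gave -0.60 (SE 0.08), with a quasi-likelihood FDR of 0.0138. The gene has several start sites with windows of their own, used in melanocytes and in other cells, and the counts are summed over all transcripts.

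*Mc1r* (ENSMUSG00000074037, chromosome 8 from 123407107 to 123410744) was the lowest of the 10 genes. It had 4.67, 3.19 and 4.57 CPM in the WT libraries and 3.23, 0.824 and 2.37 CPM in the TG libraries. The genotypes overlapped, since TG replicate 1 lay just above WT replicate 2. The value of TG replicate 2 rests on 14 counts, with an exact Poisson 95% interval from 0.450 to 1.38 CPM that covers counting error only. The log2 fold change was -0.94 (SE 0.43) and the quasi-likelihood FDR of edgeR was 0.215. The value was -0.53 without TG replicate 2, with a quasi-likelihood FDR of 0.275, so a difference in *Mc1r* was not detectable in these fits. The likelihood-ratio test of edgeR did call it lower, with an FDR of 0.0351.

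The enzymes of melanin synthesis are *Tyr*, *Tyrp1* and *Dct*. *Tyrp1* (ENSMUSG00000005994, chromosome 4 from 80834123 to 80851719) encodes the oxidase that acts late in the synthesis of eumelanin, the dark melanin, and had 128, 121 and 131 CPM in the WT libraries and 67.8, 37.2 and 64.5 CPM in the TG libraries. The WT values lay close together, and all TG values lay far below them. The mean fell from 127 ± 5.05 to 56.5 ± 16.8 CPM (SD, n = 3 each), and the log2 fold change was -1.16 (SE 0.21), with an edgeR quasi-likelihood FDR of 0.0467. From the 5 libraries other than TG replicate 2, the log2 fold change was -0.92 (SE 0.06), with a quasi-likelihood FDR of 0.00646.

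*Dct* (ENSMUSG00000022129, chromosome 14 from 118012790 to 118052244), which encodes dopachrome tautomerase and is expressed from the melanoblast stage on, had 160.02, 129 and 146 CPM in the WT libraries and 94.3, 66.6 and 89.2 CPM in the TG libraries. The genotypes did not overlap. The mean fell from 145 ± 15.7 to 83.4 ± 14.7 CPM (SD, n = 3 each), and the log2 fold change was -0.80 (SE 0.14), with the same edgeR quasi-likelihood FDR of 0.0467. With TG replicate 2 left out it was -0.64 (SE 0.09), with a quasi-likelihood FDR of 0.0173.

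*Tyr* (ENSMUSG00000004651, chromosome 7 from 87424771 to 87493512) encodes tyrosinase, the rate-limiting enzyme, and had 46.9, 37.7 and 44.2 CPM in the WT libraries and 25.4, 13.2 and 25.5 CPM in the TG libraries. TG replicates 1 and 3 were almost equal, and TG replicate 2 lay well below them. A log2 fold change of -1.01 (SE 0.24) was found, and the edgeR quasi-likelihood FDR was 0.0666. When TG replicate 2 was left out, it was -0.74 (SE 0.10), with a quasi-likelihood FDR of 0.0154.

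*Pmel* and *Mlana* encode proteins of the early melanosome. *Pmel* (ENSMUSG00000025359, chromosome 10 from 128704195 to 128720238) had 123, 101 and 110.5 CPM in the WT libraries and 62.8, 30.3 and 59.1 CPM in the TG libraries. Its log2 fold change was -1.13 (SE 0.26) and the edgeR quasi-likelihood FDR 0.0621, and without TG replicate 2 it was -0.85 with a quasi-likelihood FDR of 0.00915. All 3 TG libraries lay below all 3 WT libraries.

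*Mlana* (ENSMUSG00000024806, chromosome 19 from 29697824 to 29708634), whose protein aids the maturation of PMEL, had 20.2, 19.6 and 22.9 CPM in the WT libraries and 10.9, 3.65 and 10.8 CPM in the TG libraries. TG replicate 2 was at 33.6% of the mean of the other TG libraries. The log2 fold change was -1.30 (SE 0.37) and the edgeR quasi-likelihood FDR 0.0871. It was -0.93 without this library, with a quasi-likelihood FDR of 0.0122.

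The transporters act in the membranes of the melanosome and its precursors. *Oca2* (ENSMUSG00000030450, chromosome 7 from 56239760 to 56536518) encodes a chloride channel that makes the melanosome less acidic, and had 19.0, 18.2 and 15.5 CPM in the WT libraries and 9.01, 1.94 and 7.61 CPM in the TG libraries. Its log2 fold change of -1.51 (SE 0.47) was the lowest of the 10 genes, but its error was also the largest, and the quasi-likelihood FDR of edgeR was 0.106. TG replicate 2, with 33 counts, was at 23.4% of the mean of the other TG libraries, and without it the log2 fold change was -1.06 (SE 0.14) with a quasi-likelihood FDR of 0.0134.

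*Slc45a2* (ENSMUSG00000022243, chromosome 15 from 11000721 to 11029233), which encodes a proton-coupled sugar transporter, had 11.1, 8.48 and 9.80 CPM in the WT libraries and 5.01, 2.94 and 5.18 CPM in the TG libraries. The log2 fold change was -1.16 (SE 0.23) and the quasi-likelihood FDR of edgeR was 0.0526, just over the threshold. It was -0.92 without TG replicate 2, with a quasi-likelihood FDR of 0.0224.

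*Slc24a5* (ENSMUSG00000035183, chromosome 2 from 125068124 to 125088677), which encodes a potassium-dependent sodium-calcium exchanger, had 21.7, 17.7 and 19.8 CPM in the WT libraries and 11.5, 4.71 and 10.2 CPM in the TG libraries. The log2 fold change was -1.17 (SE 0.30) and the edgeR quasi-likelihood FDR 0.0739, and without TG replicate 2 it was -0.85 with a quasi-likelihood FDR of 0.0157. Its exons overlap those of *Myef2* on the opposite strand over 921 bases, and the strand setting of the counting is not given in the sources used here, so the split of reads between the genes is uncertain. *Myef2* had 16.4 CPM in WT and 17.0 CPM in TG skin on average, with a log2 fold change of 0.05. The exonic overlaps of *Pmel* with *Dgka* (105 bases) and *Cdk2* (34 bases) on the opposite strand are shorter. The exons of *Mc1r* overlap those of *Gm38092* on the opposite strand over 653 bases, so its few counts are uncertain in the same way.

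The distance from the WT mean was computed for each TG library singly, as a difference of log2 CPM. In TG replicate 1 it ranged from -0.96 (*Slc45a2*, with *Oca2* at the same value to 2 decimals) to -0.34 (*Mc1r*) over the 10 genes, with a median of -0.80. In TG replicate 3 it ranged from -1.20 (*Oca2*) to -0.55 (*Mitf*), with a median of -0.91, and in TG replicate 2 from -3.17 (*Oca2*) to -1.12 (*Dct*), with a median of -1.82. TG replicate 1 was below the lowest WT library in 9 of the 10 genes, and TG replicates 2 and 3 in 10 of 10. The lower levels were thus present in each TG mouse and not in TG replicate 2 alone, while the distance of that library was the largest in each gene.

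**Figure D2:**
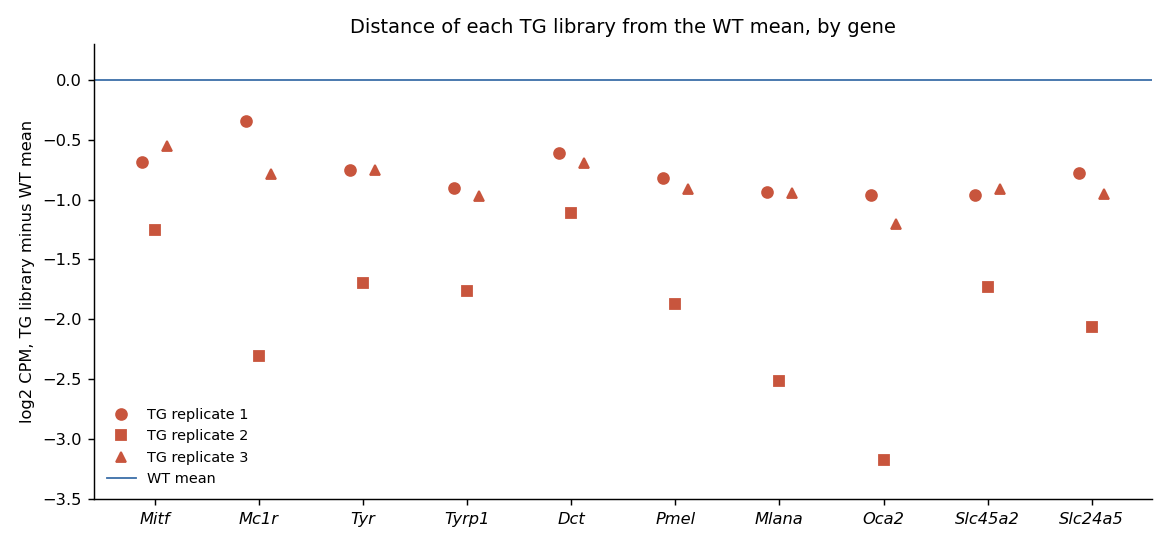
Difference in log2 CPM between each TG library and the mean of the WT libraries (blue line at 0) for the 10 genes. TG replicates 1 and 3 lie near each other for most genes, with medians of -0.80 and -0.91, and TG replicate 2 lies below both in each gene, with a median of -1.82.

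The genes were then compared with *Dct* within each library, so that a change common to both genes of a library cancels. The log2 ratio of CPM + 0.5 to that of *Dct* had a lower mean in TG than in WT skin for all 9 other genes, by unequal amounts. *Dct* itself had the smallest fall in the main test, with a log2 fold change of -0.797. That of *Mitf* was -0.800, and those of the other genes were lower. The direction shared by the 9 ratios thus largely restates the choice of *Dct* as reference and is no separate result. The TG minus WT difference of the mean log2 ratio was -0.02 for *Mitf* and -0.12 for *Mc1r*, with overlapping genotypes, and without TG replicate 2 these turned to 0.04 and 0.16. With CPM + 0.05 in place of CPM + 0.5, the difference was -0.31 for *Mc1r* and again -0.02 for *Mitf*. With CPM + 0.5 it was -0.24 for *Tyr*, -0.30 for *Slc45a2*, -0.39 for *Pmel*, -0.40 for *Tyrp1* and -0.40 for *Slc24a5*. For *Mlana* it was -0.59 and for *Oca2* -0.85, the largest of the 9. In these 7 genes every TG ratio lay below every WT ratio. The two-sided exact permutation test over samples gave p = 0.1 for each of the 7, the smallest p that 3 libraries against 3 allow, and an adjusted p of 0.129 by Benjamini-Hochberg over the 9 ratios, so none passed a threshold of 0.05. *Mc1r* and *Mitf* had p = 0.8 and p = 0.9 in the same exact permutation test. Without TG replicate 2 the differences of 5 of the 7 genes were smaller by more than 1.5 times, at -0.38 for *Oca2*, -0.26 for *Mlana*, -0.21 for *Pmel*, -0.18 for *Slc24a5* and -0.09 for *Tyr*. Those of *Tyrp1* and *Slc45a2* were then -0.28 and -0.22.

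**Figure D3:**
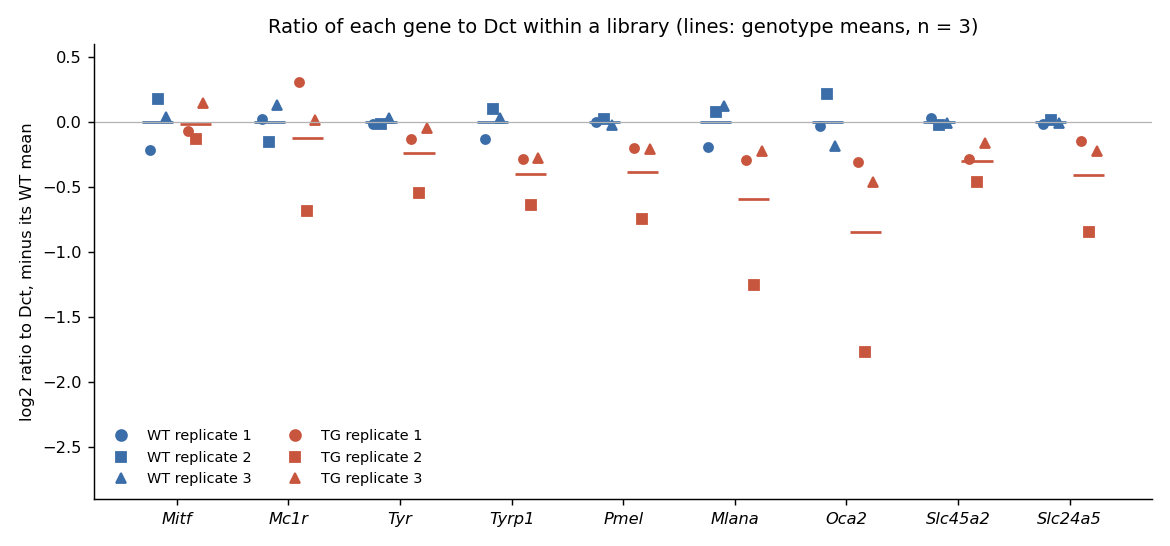
Log2 ratio of each gene to *Dct* within a library (CPM + 0.5), with the WT mean of each gene set to 0, for 3 WT (blue) and 3 TG (red) libraries and with lines at the genotype means. *Mitf* and *Mc1r* overlap between the genotypes, and the TG mean lies lowest for *Oca2* (-0.85), where TG replicate 2 is far below the other libraries.

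Levels were compared between the genes per kilobase of exon, since longer transcripts give more counts. In WT skin *Pmel* had 48.5 ± 4.83 and *Tyrp1* 44.8 ± 1.78 CPM per kilobase (SD, n = 3), and their libraries overlapped. *Dct* followed with 24.6 ± 2.66, *Mlana* with 19.8 ± 1.69, *Mitf* with 13.4 ± 0.589, *Slc24a5* with 8.47 ± 0.841 and *Tyr* with 6.05 ± 0.666 CPM per kilobase. *Oca2* (4.43 ± 0.462), *Slc45a2* (3.28 ± 0.440) and *Mc1r* (1.14 ± 0.227) were the lowest. Except for *Pmel* and *Tyrp1*, no neighbours in this order overlapped in WT skin. The order in TG skin was the same, from 22.1 ± 7.77 for *Pmel* to 0.588 ± 0.335 CPM per kilobase for *Mc1r* (SD, n = 3). There more neighbours overlapped, namely *Pmel* with *Tyrp1*, *Tyrp1* with *Dct*, *Mlana* with *Mitf*, *Slc24a5* with *Tyr*, *Tyr* with *Oca2* and *Oca2* with *Slc45a2*.

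Other genes of pigmentation were taken from 5 lists with 66 genes, of which 63 were tested. The quasi-likelihood test of edgeR called 0 of the 63 in either direction, while unadjusted p-values under 0.05 were reached by 21 lower and 6 higher genes of the 63, against 13.0% lower and 13.3% higher of all tested genes. With the likelihood-ratio test, edgeR called 11 lower and 1 higher (*Anxa2*), DESeq2 called 10 lower and 4 higher (*Anxa2*, *Zeb2*, *Rab27a* and *Col17a1*), and voom called 0. The likelihood-ratio test called 4.87% of all genes lower and 5.52% higher, DESeq2 4.18% and 6.35%, and voom 0.417% and 1.23%. The quasi-likelihood test without TG replicate 2 called 8 lower and 2 higher, the latter being *Zeb2* and *Anxa2*, with 2.74% of all genes called lower and 2.73% higher. The median log2 fold changes of the lists lay between -0.35 and 0.04, nearer to the median of all genes than that of the 10 genes above.

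The list of other melanocyte transcription factors and receptors had 12 tested genes, 9 with a log2 fold change below 0 and 3 above. *Trpm1*, which encodes a cation channel of melanocytes and is a known MITF target, had 57.7, 57.1 and 59.7 CPM in the WT libraries and 35.0, 11.8 and 30.6 CPM in the TG libraries. At -1.17 (SE 0.35) it had the lowest log2 fold change of this list, with an edgeR quasi-likelihood FDR of 0.0981. *Ednrb*, an endothelin receptor of the lineage that other skin cells express too, had 131, 146 and 146 CPM in the WT libraries and 105, 54.8 and 86.5 CPM in the TG libraries, with a log2 fold change of -0.78 and an edgeR quasi-likelihood FDR of 0.0822. Both passed the threshold without TG replicate 2, with log2 fold changes of -0.81 and -0.54.

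*Sox10*, *Kit* and *Pax3* are regulators of the lineage that do not take part in melanin synthesis. *Sox10*, the neural crest factor that is also expressed in Schwann cells, had 5.50, 4.81 and 5.14 CPM in the WT libraries and 4.45, 5.41 and 4.37 CPM in the TG libraries. The genotypes overlapped, and the library lowest in the pigment genes, TG replicate 2, had the highest *Sox10* of the TG libraries. Its log2 fold change was -0.12 (SE 0.14) and the edgeR quasi-likelihood FDR 0.621, and it ran from -0.21 (without TG replicate 2) to -0.05 with each library left out. *Kit*, the receptor for stem cell factor, which mast cells express too, had 34.4, 29.7 and 32.8 CPM in the WT libraries and 29.8, 24.4 and 30.3 CPM in the TG libraries, a log2 fold change of -0.20 (SE 0.11) with a quasi-likelihood FDR of 0.277, and -0.09 without TG replicate 2. *Pax3*, an upstream regulator of *Mitf*, had a log2 fold change of 0.04 (SE 0.18) and an edgeR quasi-likelihood FDR of 0.8998, and it ran from -0.06 to 0.16 with each library left out. *Zeb2*, which is expressed in many cells of the skin, was the highest of the list at 0.33 (quasi-likelihood FDR 0.0588, edgeR). In 4 of the 12 genes every TG library lay below every WT library: *Trpm1*, *Ednrb* and, named here after their values were seen, *Lef1* and *Sox5*. The share of all tested genes that separated this way was 18.2%.

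**Figure D4:**
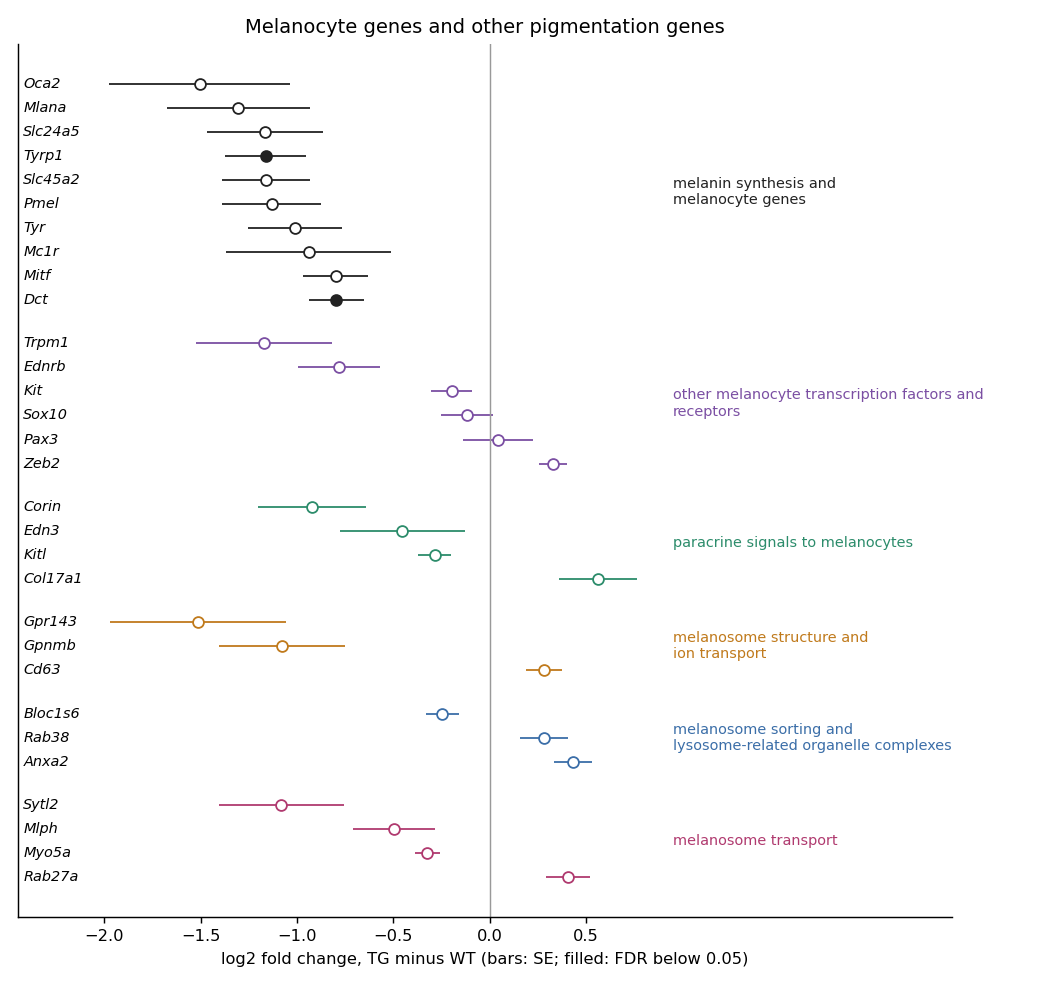
Log2 fold change (TG minus WT) with its SE for the 10 genes and for the named genes of the 5 pigmentation lists, where filled points have a quasi-likelihood FDR below 0.05. The 10 genes lie between -1.51 and -0.80, *Gpr143*, *Trpm1*, *Gpnmb*, *Sytl2* and *Corin*, a gene of the dermal papilla, lie in the same range, and *Sox10*, *Kit* and *Pax3* lie nearer to 0.

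Some of these markers are shared with other cells, so marker lists were read in the same libraries. Of the Schwann cell list, 0 of 9 tested genes were called by edgeR's quasi-likelihood test and 1 was higher at an unadjusted p-value under 0.05 (*Cdh19*, named after its value was seen), where 13.3% of all tested genes were higher. The summed level of the list was 246 to 253 CPM in WT and 271 to 297 CPM in TG libraries, but *Fxyd3*, also named after its value was seen, made up 105 to 128 CPM in WT and 126 to 144 CPM in TG libraries. Without *Fxyd3* the sum was 120.3 to 148 CPM in WT and 144 to 153 CPM in TG libraries, and the genotypes overlapped. Its log2 fold changes ran from -0.08 (*Egr2*) to 0.58 (*Gldn*), and with each library left out these genes ran from -0.24 to 0.10 and from 0.33 to 0.84. Of the mast cell list, 8 of 8 tested genes had a log2 fold change above 0, and *Hdc* (1.45, quasi-likelihood FDR 0.0300) and *Cma1* (0.59, quasi-likelihood FDR 0.0467) rose in edgeR, in a test that called 1.44% of all genes higher, while *Mrgprb2* was the lowest at 0.36 and at 0.21 without TG replicate 2. The summed level of mast cell genes was 141 to 160 CPM in WT and 198 to 258 CPM in TG libraries. No gene of either list was at 0 in all libraries. The part of these cells in the values of *Sox10* and *Kit*, and in that of *Mitf*, which other cells use too, was not tested.

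Signals that reach melanocytes from other skin cells were on a list with 10 tested genes. *Kitl*, which encodes stem cell factor, had 95.2, 79.8 and 80.0 CPM in the WT libraries and 71.8, 65.6 and 71.8 CPM in the TG libraries, a log2 fold change of -0.29 (SE 0.09) and an edgeR quasi-likelihood FDR of 0.1001. All TG values lay below all WT values. *Edn3*, a ligand of EDNRB, had 2.38 to 4.89 CPM in WT and 1.87 to 2.71 CPM in TG libraries, with a log2 fold change of -0.45 (SE 0.32, quasi-likelihood FDR 0.408 in edgeR). This value rests on WT replicate 1, with 4.89 CPM, and without that library it was -0.0019. *Corin*, a protease of the dermal papilla that acts on coat colour, was the lowest of the list, with a log2 fold change of -0.92 (SE 0.28) and an edgeR quasi-likelihood FDR of 0.09996. *Col17a1*, which encodes a collagen of basal keratinocytes that anchors the stem cell niche, was the highest at 0.56 (quasi-likelihood FDR 0.139, edgeR) and at 0.34 without TG replicate 2. *Asip*, the antagonist of MC1R, had 5 to 17 counts per library and *Pomc*, the precursor of its agonist, 0 to 2, and neither passed the filter on low counts.

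Melanosome structure and ion transport had 12 tested genes, of which 8 had every TG library below every WT library and 2 every TG library above (*Cd63* and, named after its value was seen, *Mfsd12*). Over all tested genes, 18.2% separated the genotypes downwards and 15.5% upwards. *Gpr143*, a receptor of the melanosome membrane, had 3.52, 2.83 and 3.81 CPM in the WT libraries and 1.84, 0.353 and 1.31 CPM in the TG libraries. Its log2 fold change of -1.51 (SE 0.46) was as low as that of *Oca2*, with an edgeR quasi-likelihood FDR of 0.0989. *Gpnmb*, a relative of *Pmel* that macrophages express too, had 155, 182 and 191 CPM in the WT libraries and 101, 41.4 and 108 CPM in the TG libraries, a log2 fold change of -1.08 (SE 0.33) with a quasi-likelihood FDR of 0.1002. The macrophage list had log2 fold changes above 0 in 10 of 10 genes, with *Mrc1* (0.54, quasi-likelihood FDR 0.0341) and *Csf1r* (0.54, quasi-likelihood FDR 0.0456) called higher by edgeR, as were 1.44% of all genes. *Cd14* was the highest of this list at 1.52 (quasi-likelihood FDR 0.0504, edgeR) and *C1qa* the lowest at 0.27 (quasi-likelihood FDR 0.242), which ran from 0.14 to 0.36 with each library left out. The summed level of the list was 537 to 658 CPM in WT and 782 to 875 CPM in TG libraries, and the part of macrophages in *Gpnmb* was not tested. *Cd63*, a tetraspanin of lysosome-related organelles in many cells, was the highest of the melanosome list at 0.28 (quasi-likelihood FDR 0.118, edgeR).

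The 22 genes of melanosome sorting and lysosome-related organelle complexes are expressed in most cells, and 7 had a log2 fold change below 0 and 15 above. Their range was narrow, from -0.25 (*Bloc1s6*) to 0.43 (*Anxa2*). *Rab38*, which directs TYR and TYRP1 to the melanosome, had 23.4 to 27.8 CPM in WT and 28.2 to 37.2 CPM in TG libraries, a log2 fold change of 0.28 (SE 0.13) and an edgeR quasi-likelihood FDR of 0.209, and it was at 0.16 without TG replicate 2. All its TG values lay above all its WT values, whereas those of the enzymes it sorts lay below.

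Melanosome transport had 7 tested genes, 6 of them with a log2 fold change below 0. *Rab27a*, *Mlph* and *Myo5a* encode the complex that moves melanosomes along actin. *Rab27a* had 18.2 to 21.7 CPM in WT and 23.4 to 29.9 CPM in TG libraries, with a log2 fold change of 0.41 (SE 0.12) and an edgeR quasi-likelihood FDR of 0.0884. *Mlph* was at -0.50 (SE 0.21, quasi-likelihood FDR 0.196) and *Myo5a* at -0.32 (SE 0.06, quasi-likelihood FDR 0.0531) in the same edgeR test. *Sytl2*, which encodes another RAB27A partner, was the lowest at -1.08 (SE 0.32, quasi-likelihood FDR 0.0981 in edgeR), with 86.5 to 108 CPM in WT and 22.8 to 59.2 CPM in TG libraries.

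Melanocytes of the hair bulb work beside the keratinocytes that build the hair, and the levels of these cells' genes were read in the same libraries. Of 16 listed hair shaft and inner root sheath genes 15 were matched and tested, and *Krt85* was not analysed here. Every TG library lay below every WT library in 18.2% of all tested genes and in 15 of these 15. Their log2 fold changes ran from -2.28 (*Krt33b*, quasi-likelihood FDR 0.151) to -1.23 (*Tchh*, quasi-likelihood FDR 0.225, at -0.76 without TG replicate 2), and 0 of the 15 were called by edgeR's quasi-likelihood test. At an unadjusted p-value under 0.05 there were 14 lower genes, and the likelihood-ratio test of edgeR called 14 lower, DESeq2 and voom 0. Of all tested genes 13.0% were lower at that p-value, 4.87% were called lower by the likelihood-ratio test, 4.18% by DESeq2 and 0.417% by voom. The quasi-likelihood test of edgeR without TG replicate 2 called 14 of the 15 lower, with a median log2 fold change of -0.95 in place of -1.42, and 7 of the 10 hair matrix genes, with 2.74% of all genes called lower. The summed level of this list was 84.6% to 112% of its WT mean in WT libraries, 44.0% in TG replicate 1, 8.50% in TG replicate 2 and 55.4% in TG replicate 3. The summed level of the 10 melanocyte genes was 58.8%, 33.8% and 57.0% of its WT mean in the same TG libraries. TG replicate 2 was thus the lowest TG library in both lists, and it was lower in the hair list than in the melanocyte genes. The hair matrix list was at 72.1%, 56.1% and 77.1%. *Gata3*, with a mean of 103 CPM in WT and 121 CPM in TG skin, has a large share in this sum. Without *Gata3* the list was at 65.5%, 38.3% and 71.0% of its WT mean in TG replicates 1, 2 and 3. The quasi-likelihood test of edgeR and voom called 0 of its 10 genes, although 8 were lower at an unadjusted p-value under 0.05, while the likelihood-ratio test called 7 lower and DESeq2 6. Its median log2 fold change was -0.86, and in 8 of its 10 genes every TG library lay below every WT library, against the same 18.2% of all tested genes. *Msx2*, at -1.13 (quasi-likelihood FDR 0.0811, edgeR), was the lowest, and *Gata3*, at 0.22 (quasi-likelihood FDR 0.320) and at 0.09 without TG replicate 2, the highest. The TG means of *Foxn1*, *Hoxc13*, *Msx1* and *Lef1*, named after their values were seen, were 46.2%, 47.0%, 51.3% and 52.1% of their WT means, within the range of the 10 melanocyte genes. *Msx2* was at 45.8%. The rest of the list was above that range, with *Gata3* at 117% and, also named after their values were seen, *Wnt10b* at 58.3%, *Dlx3* at 60.1%, *Shh* at 78.4% (the genotypes overlapped) and *Ovol1* at 80.8%. The part of the hair follicle in the lower levels of the melanocyte genes was not tested.

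Epidermal keratinocyte genes had log2 fold changes above 0 in 10 of 10 tested genes. Their summed level was 90.8% to 108% of its WT mean in WT libraries and 128%, 181% and 119.7% in TG replicates 1, 2 and 3. Without TG replicate 2 their median log2 fold change was 0.19 in place of 0.46, and *Ivl* and, named after its value was seen, *Lor* were at -0.02 and -0.01. *Krt14*, a keratin of the basal layer, rose by a log2 fold change of 0.95 (quasi-likelihood FDR 0.0300, edgeR), and *Ivl*, which encodes a protein of the cornified envelope, was the lowest of the list at 0.08 with all 6 libraries. A larger share of epidermal RNA can lower the CPM of all other cells' genes, and its part in the lower melanocyte levels was not tested. Without TG replicate 2, the library with the highest epidermal level, the median log2 fold change of the 10 genes was -0.85. The epidermal sums of TG replicates 1 and 3, which stay in that fit, were also above those of all WT libraries.

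**Figure D5:**
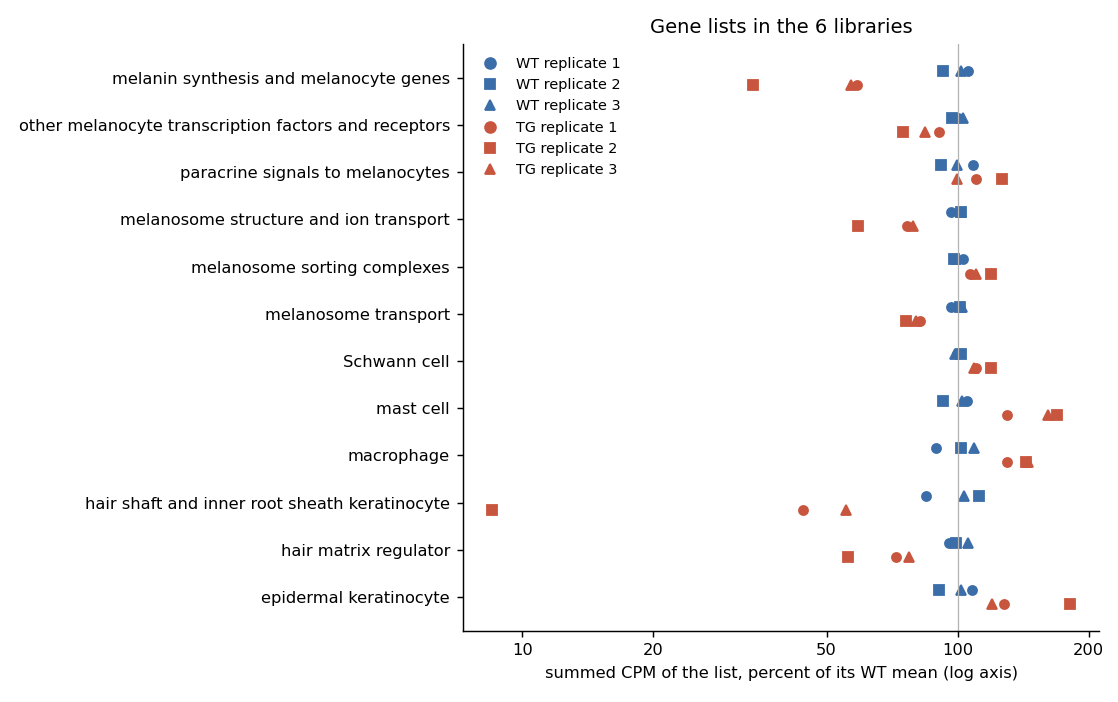
Summed CPM of each gene list as percent of its WT mean (log axis) in 3 WT (blue) and 3 TG (red) libraries. The 10 melanocyte genes stand at 58.8%, 33.8% and 57.0% in TG replicates 1, 2 and 3, the hair shaft and inner root sheath list at 44.0%, 8.50% and 55.4%, and the Schwann cell, mast cell, macrophage and epidermal lists above their WT means. The Schwann cell sum is in large part *Fxyd3*, and without it the genotypes overlap.

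Genes with a pattern like that of the 10 genes were ranked by Pearson's correlation over the 6 libraries with the mean of the standardised log2 CPM of the 10 genes. The 10 highest were *Smchd1*, *Nhs*, *Dtnb*, *Ttyh2*, *Rasl11a*, *Atp6v1c1*, *Ap5m1*, *Dlx4os*, *Herc1* and *B4galt4*, with r from 0.994 to 0.999. These values describe the ranking and carry no test, since 1325 of 14948 other tested genes, or 8.86%, had r above 0.9. The 6 libraries fall into the genotypes and the distance of TG replicate 2, which all these genes share. *Smchd1*, which encodes a chromatin protein, had 178, 172 and 179 CPM in the WT libraries and 151, 121 and 148 CPM in the TG libraries. Its log2 fold change of -0.33 was smaller than that of any of the 10 melanocyte genes. Of the like genes only *Dlx4os*, at -0.97, lay within the range of the melanocyte genes. The ranking follows the shape of a pattern and takes no account of its size.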

How the data were processed

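Skin RNA of 3 WT and 3 TG mice was analysed from the raw counts that the authors deposited, with 1 column per mouse. TopHat2 (2.0.12 in the submitters' processing notes) and Bowtie2 2.1.0 had placed the read pairs on GRCm38, and HTSeq-count had counted uniquely mapped reads on Ensembl genes. The annotation release and the strand setting are not given in the sources used here. A total RNA kit is named in the labels and mRNA libraries in the methods, which changes the RNAs counted.

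The filter required 1 CPM or more in 3 or more samples, which left 15102 of 26579 genes, and scaling was by TMM. As main test, glmQLFit and glmQLFTest of edgeR 4.0.16 (R 4.3.3) were run in the bias-adjusted form, with genotype as the only term and Benjamini-Hochberg adjustment over all tested genes (FDR, threshold 0.05). The SE is the absolute log2 fold change over the square root of F. Alternatives were edgeR's likelihood-ratio test, voom (limma 3.58.1), DESeq2 1.42.0, other scalings and filters, each library left out, and a replicate block. The tests were checked on simulated data. Members and lists were chosen with earlier results of these data known. The named genes are all members, 15 pigmentation genes whatever their values, and in each list those past the threshold and the highest and lowest. Genes of like pattern and genes overlapping a member are also named, and other names are marked as given after their values were seen. Names, lengths and positions came from GENCODE M21, which lacks 558 identifiers, and promoters from RefSeq.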

Additional observations from a re-analysis of the deposited data

How the results depend on the processing

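The direction of all 10 log2 fold changes was the same under each of the 16 alternatives. Of 160 alternative values, 123 stayed on their side of the threshold, 24 newly passed it, 13 lost it and 0 changed sign. The number of the 10 genes called lower was 2 and moved to 4 without the low-count filter (*Slc45a2* and *Mitf* in addition), 10 with the likelihood-ratio test, 8 with DESeq2 and 0 with the replicate block, and from 0 to 9 with each library left out. Calls over all genes were 288, and 497, 1568, 1590 and 0 in the same settings, 571 with the robust prior of the quasi-likelihood test, which called *Dct* and *Slc45a2*, and from 0 to 817 with each library left out. With the replicate block, 2949 genes and 10 of the 10 had an unadjusted p-value under 0.05. Samples share only the replicate number: the correlations of same-numbered deviations were -0.33, -0.23 and -0.05. Genes called lower on the pathway lists were 11 with the likelihood-ratio test, 10 with DESeq2, 2 with the robust prior (*Myo5a* and, named after its value was seen, *Mreg*) and from 0 to 8 with each library left out; those called higher were 1, 4, 2 and from 0 to 2, and 1 with upper-quartile factors. *Slc24a4*, also named after its value was seen, was the pathway gene called without TG replicate 1. The ratio of *Mc1r* to *Dct* ran from -0.34 to 0.16 and that of *Mitf* from -0.13 to 0.069 with each library left out, and both changed sign. The cause was not tested. The robust prior, the earlier form of the test and the written-out fit without TG replicate 2 were added after seeing the data. The 14 counts of *Mc1r* and 33 of *Oca2* in TG replicate 2 limit both genes, and 3 mice a genotype limit all.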
